A study of Homo sapiens with 6 samples.

Results

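The epidermal differentiation complex is a gene cluster on human chromosome 1 that holds the S100A calcium-binding proteins, the small proline-rich proteins (SPRR), the late cornified envelope proteins (LCE), involucrin (IVL), loricrin (LOR) and the filaggrin-type proteins. Its members were taken by position: all protein-coding genes in a fixed interval of chromosome 1 (hg38), whose outermost members start at 151982915 (S100A10) and 153627926 (S100A1). This gave 64 of the 19951 protein-coding genes in the deposited table of 58735 genes. The rule uses no measured value, though it was chosen with earlier results of these data known. RNA-seq had been done on 6 cultures of SZ95, an immortalised human line derived from the sebaceous gland. Of the libraries, 3 came from wild-type cells that received a mock plasmid, and 3 from cells that received a plasmid for overexpression of TRPV3, a calcium-permeable cation channel, all at 24 h per the labels. The design text states that replicates are biological; neither the plasmid's promoter nor the share of cells that took it up is stated there. With RNA of a whole culture, fewer cells of a type and less RNA per cell cannot be told apart.

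In the upper layers of the epidermis, genes of this complex are switched on in sequence as keratinocytes mature. Involucrin is laid down early under the plasma membrane, loricrin and SPRR proteins are then cross-linked onto it by transglutaminases, and filaggrin bundles the keratins. Many S100 proteins are small calcium sensors that bind annexins and other targets. S100A8 and S100A9 pair to form calprotectin, an antimicrobial protein of neutrophils and of inflamed epithelium.

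Levels are given as FPKM, a read count divided by gene length and library depth, as deposited, and whole reads could be recovered from them. The libraries held 16.02 to 18.4 M recovered reads. The depth by which the deposited values were divided was 3.93% below that total in TRPV3 replicate 1. It was 4.78% above the total in mock replicate 3, and 0.02% to 1.33% above it in the other libraries. A count of 0 still allows 3 reads, which in a 1 kb gene would be 0.165 to 0.185 FPKM depending on the library (counting error only). TRPV3 itself rose from 0.404 ± 0.0400 FPKM in mock to 648 ± 103 FPKM in TRPV3 libraries (SD, n = 3 each; limma adjusted p = 2.7e-07; exact two-sided permutation p = 0.1, the smallest that 3 against 3 libraries can give). Cell identity markers were those of an epithelial, sebocyte-derived culture in part: KRT7 was at 500 to 655 FPKM and FASN at 47.7 to 71.4 FPKM, whereas the wax synthase genes AWAT1 and AWAT2 had 1 and 0 reads at most. Suprabasal keratinocyte markers were mixed: KRT10 was at 13.5 to 21.1 FPKM, DMKN at 11.9 to 17.4 FPKM and CALML5 at 1.13 to 2.24 FPKM, and the other 4 of the 7, KRT1, DSC1, KRTDAP and SBSN, had at most 3, 5, 4 and 19 reads. Of 7 basal keratinocyte and epithelial markers, KRT18, KRT8, CDH1, KRT5 and EPCAM averaged 125 to 375 FPKM over the 6 libraries. KRT14 and TP63 averaged 1.02 and 0.367 FPKM. Of the 12 sebocyte markers listed, 9 averaged at least 1 FPKM. A pair of libraries stood apart. In TRPV3 replicate 1 short genes read high and long genes low against the other TRPV3 libraries, and results below are therefore given with and without it. In mock replicate 3, 34467 genes had a read, against 22311 to 23072 in the others.

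Few genes of the complex were expressed. A mean of at least 1 FPKM over the 6 libraries was reached by 16 of 64 (25.0%), against 53.3% of all protein-coding genes. They were 12 of 17 S100 genes, 3 of 11 SPRR genes (SPRR1B, SPRR2D and SPRR2A) and IVL, and 0 of 18 LCE genes and 0 of 7 filaggrin-type genes. Another 18 members (28.1%, against 8.07% of protein-coding genes) had no read in any library, among them LOR, the main protein of the cornified envelope. The lowest member above 1 FPKM was S100A7, with a mean of 1.13 FPKM, and the highest below it was SPRR1A, with 0.846 FPKM. S100A7 averaged 0.737 ± 0.450 FPKM in mock and 1.51 ± 0.613 FPKM in TRPV3 libraries, so it passed only through the TRPV3 libraries.

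The expressed members lay in separate blocks. S100A10 and S100A11, at the low-coordinate end, were both expressed. Of the 30 members from TCHHL1 to SMCP (152084144 to 152885047), 0 were expressed and 11 had no read. Of the 12 from IVL to SPRR2G, 4 were expressed, and of the 5 from LELP1 to PGLYRP4, 0. At the other end, 10 of the 15 members from S100A9 to S100A1 (153357854 to 153632039) were expressed. The nearest protein-coding genes outside, THEM4 and CHTOP, had mean levels of 5.69 and 16.3 FPKM.

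**Figure D1:**
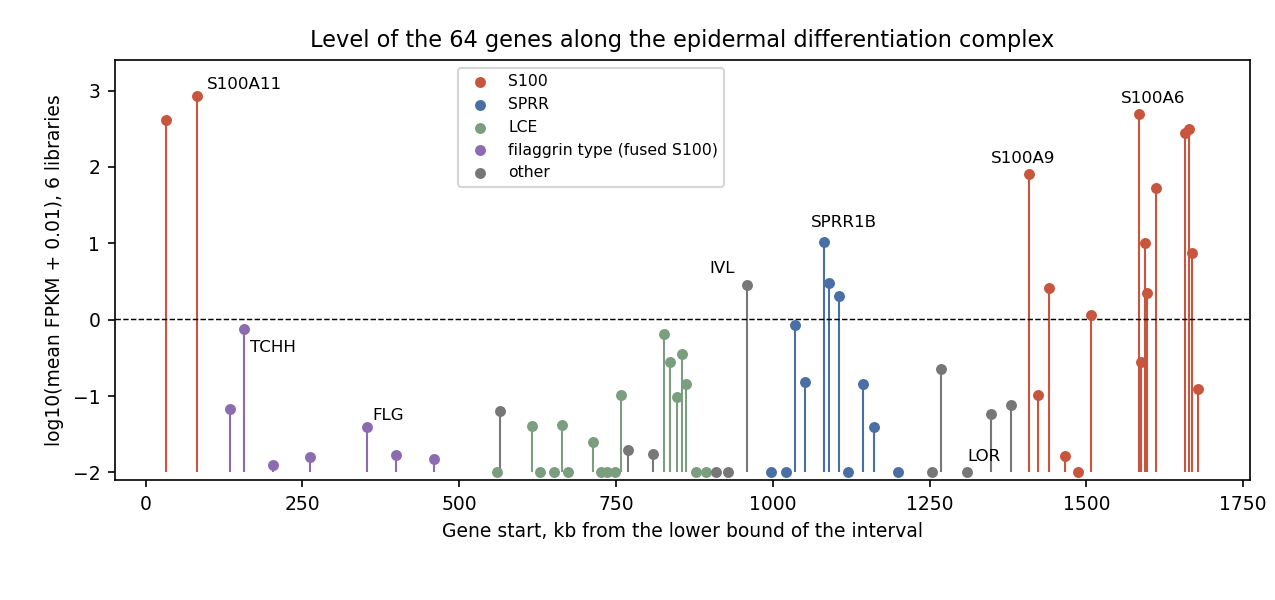
Mean level of each of the 64 genes over the 6 libraries, as log10(mean FPKM + 0.01), against the distance of its start from the lower bound of the interval in kb; colours mark gene families and the dashed line 1 FPKM. High S100 genes stand at both ends, the LCE and filaggrin-type genes between them lie under the line, and IVL with 3 SPRR genes rise above it.

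The level of the complex came almost wholly from S100 genes. In each library the 5 highest members, S100A11, S100A6, S100A10, S100A14 and S100A16, made up 92.2% to 93.4% of its summed FPKM. S100A11, which binds annexin A1 and is a cornified envelope component, was the highest, at 766 ± 12.6 FPKM with mock. S100A6 (calcyclin) followed at 438 ± 23.1 FPKM, and S100A10, the ligand of annexin A2, at 365 ± 33.9 FPKM. S100A14 was at 279 ± 6.63 FPKM and S100A16 at 261 ± 4.43 FPKM. After them came S100A9 at 67.6 ± 4.14 and S100A2, an S100 gene of basal epithelial cells, at 46.6 ± 4.80 FPKM. Down to IVL each gene lay above the next in every mock library; below it, the ranges of IVL, S100A3, S100A8, SPRR2D, SPRR2A and S100A7 overlapped from each to the next.

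**Figure D2:**
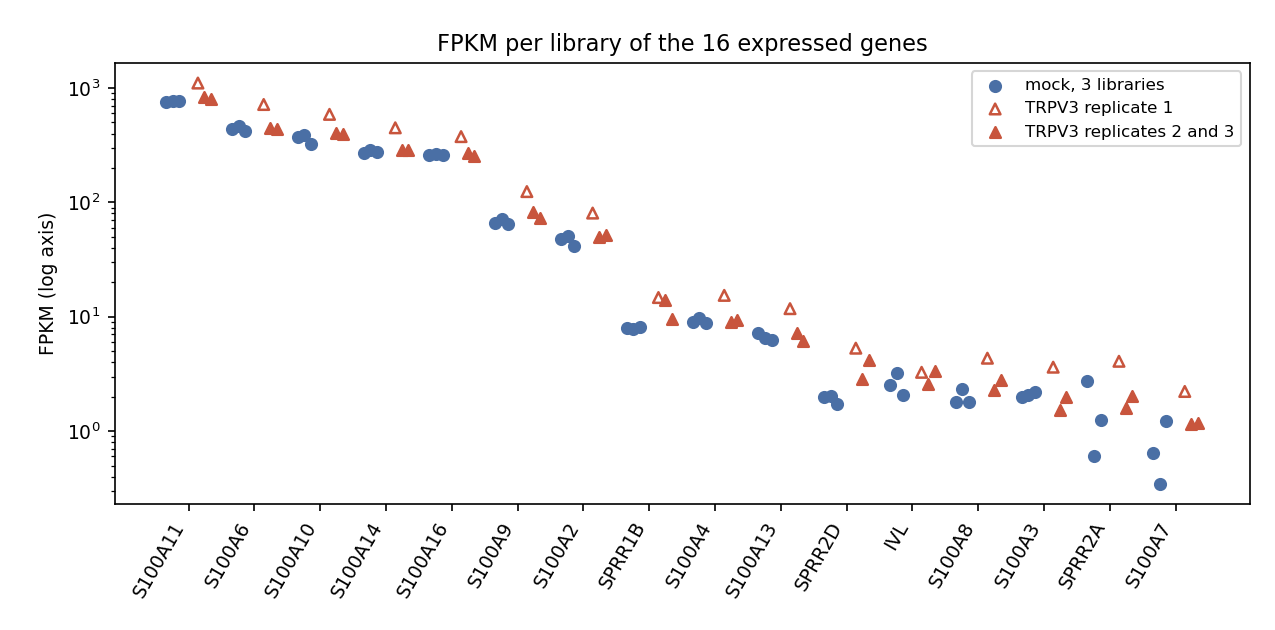
FPKM per library (log axis) of the 16 expressed genes in order of mean level; circles are the 3 mock libraries, filled triangles TRPV3 replicates 2 and 3, and open triangles TRPV3 replicate 1. The open triangle is the highest of the 6 points in 15 of the 16 genes; IVL is the exception.

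No member of the complex passed the test between the plasmids. Of 16 members tested 0 were called higher and 0 lower by limma at an adjusted p under 0.05; of all 12177 genes tested 0.0411% were called higher and 0% lower. At an unadjusted p under 0.05, 3 members were higher (3.28% of all genes) and 0 lower (1.21%): SPRR2D, SPRR1B and S100A8. By limma-voom on the recovered reads 0 members were called (0.0328% of all genes higher), and at an unadjusted p under 0.05, 2 were higher (2.46% of all genes) and 0 lower (1.7%). All 16 fitted fold changes were above 0, where 53% of all genes were. Their median was 0.29 on the scale of log2(FPKM + 1), which understates the change of low genes, and the median of all genes was 0.01. S100A7 had passed the filter through its TRPV3 libraries, which favours a fold change above 0; for the other 15 members, with mock means of at least 1 FPKM, the median was 0.26, or 0.12 without TRPV3 replicate 1. The TRPV3 libraries were all above the mock libraries in 6 members, S100A10, S100A11, S100A14, S100A9, SPRR1B and SPRR2D, a pattern seen in 9.49% of all genes, and all below them in 0 members (5.39%). With replicate 1 set aside, TRPV3 replicates 2 and 3 were both above all mock libraries in 6 members (14.1% of all genes) and both below in 0 (10.1%).

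Much of that upward shift moved with TRPV3 replicate 1. That library was the highest of the 6 in 15 of 16 members, against 40.9% of all genes. It lay over 0.5 above the mean of TRPV3 replicates 2 and 3 on the log2(FPKM + 1) scale in 12 of 16 members, against 8.93% of all genes. The members are short, with a median of 1016 exonic bases against 4593 for all genes tested. Among all genes of up to 1 kb this library was a median of 0.23 above the other TRPV3 libraries, among those of 1 to 2 kb 0.39 above, and among those over 8 kb 0.30 below (-0.30). The members of up to 1 kb were a median of 0.67 above, and those of 1 to 2 kb 0.60 above. Why this library was high in the members was not tested. Without this library the median fold change of the members was 0.13, 15 of 16 were above 0 (53.7% of all genes), and 0 were called (0.0657% of all genes higher by limma, 0.567% by limma-voom). At an unadjusted limma p under 0.05, SPRR2D, SPRR1B and S100A9 were then higher (4.51% of all genes) and 0 members lower (2.55%). Without mock replicate 3 as well, the median was 0.048 and 11 of 16 were above 0 (49.0% of all genes). With the length trend of each library removed it was 0.16, 15 of 16 were above 0 (49.8% of all genes), and 4 were higher at an unadjusted p under 0.05 (3.05%).

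**Figure D3:**
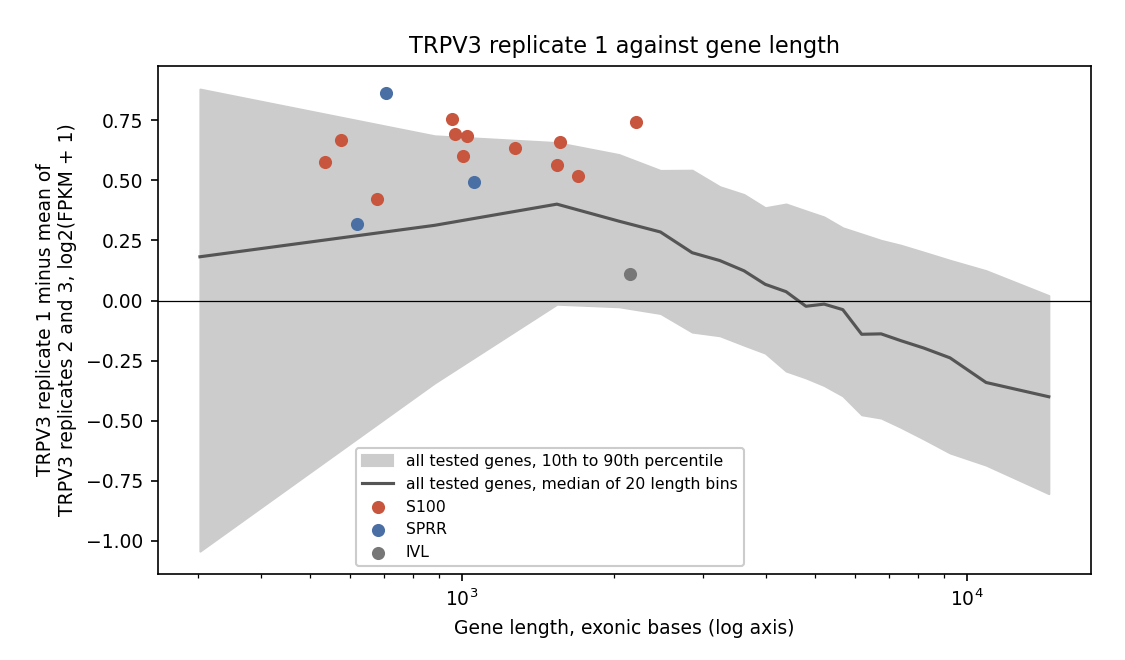
Difference between TRPV3 replicate 1 and the mean of TRPV3 replicates 2 and 3, in log2(FPKM + 1), against exonic gene length (log axis); the band and line give the 10th to 90th percentile and the median of all 12177 genes tested in 20 length bins, and dots the 16 expressed members. All 16 dots lie above 0, and all but IVL lie above the median line at their length.

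Of the SPRR genes, which encode the cross-bridging proteins of the cornified envelope, SPRR1B and SPRR2D had the lowest unadjusted p-values of the complex. SPRR1B (ENSG00000169469, plus strand, from 153031202) was at 7.99, 7.75 and 8.06 FPKM in mock replicates 1 to 3 and at 14.7, 13.97 and 9.59 FPKM in TRPV3 replicates 1 to 3. The mock libraries were close together, and all 3 TRPV3 libraries lay above them, replicates 1 and 2 well above replicate 3. Its fitted log2 fold change was 0.60 (SE 0.15; adjusted p = 0.697 by limma), and 0.50 (95% interval 0.18 to 0.81) without TRPV3 replicate 1. SPRR2D (ENSG00000163216, minus strand, from 153039725) was at 1.99, 2.04 and 1.71 FPKM with mock and at 5.31, 2.85 and 4.22 FPKM with TRPV3. Here too the groups did not overlap, and the TRPV3 libraries were spread more widely than the mock ones. Its log2 fold change was 0.79 (SE 0.18; adjusted p = 0.550 by limma), and 0.62 (95% interval 0.30 to 0.95) without TRPV3 replicate 1. Over all alternatives tried the adjusted limma p ran from 0.137 to 0.966 for SPRR1B and from 0.167 to 0.966 for SPRR2D.

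The reads behind these values were few. SPRR1B had 256 reads in the mock libraries together and 420 in the TRPV3 libraries, a ratio of read rates of 1.61 (exact 95% interval 1.37 to 1.89, counting error only). SPRR2D had 105 and 231 reads, a ratio of 2.16 (1.71 to 2.74). SPRR2A, at 34, 7 and 16 reads with mock and 51, 20 and 25 with TRPV3, varied so much within each group that the groups overlapped, and its log2 fold change was 0.52 (SE 0.36), or 0.23 without TRPV3 replicate 1. SPRR1A, under the filter, had 3, 3 and 3 reads against 5, 4 and 6. These groups did not overlap, but the ratio of read rates, 1.63, has a counting interval of 0.670 to 4.24. Its annotated model holds 270 bases, nearly all coding (267), so reads outside the coding sequence are not in its value. SPRR3 had 2 to 6 reads in a library, SPRR2E up to 3 and SPRR2F up to 1. SPRR2B, SPRR2G, SPRR4 and SPRR5 had no read. Of the 100-base words in SPRR2A transcripts 20.3% also occur in SPRR2E, SPRR2D or SPRR2B, and of those of SPRR2D 3.74%, so reads cannot be divided between these copies with certainty; SPRR1B shares none with another gene.

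Involucrin and SPRR promoters are known from keratinocytes to carry AP-1 sites. Bases before the start are printed for SPRR1B, SPRR1A, SPRR2A and IVL, which all held a match. Each is the 250 bases before the RefSeq start (GRCh38.p14), 5′ to 3′ on the gene's strand, with the AP-1 core TGAGTCA in capitals; TGAGTCA and its reverse complement TGACTCA were the only motifs searched.
SPRR1B, chr1:153030953-153031202 (plus strand): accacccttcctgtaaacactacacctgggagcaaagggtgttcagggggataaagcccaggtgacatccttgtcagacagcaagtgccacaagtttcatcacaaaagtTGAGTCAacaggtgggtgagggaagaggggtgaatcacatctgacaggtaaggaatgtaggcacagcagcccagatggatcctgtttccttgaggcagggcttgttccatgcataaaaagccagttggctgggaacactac
SPRR1A, chr1:152983831-152984080 (plus strand): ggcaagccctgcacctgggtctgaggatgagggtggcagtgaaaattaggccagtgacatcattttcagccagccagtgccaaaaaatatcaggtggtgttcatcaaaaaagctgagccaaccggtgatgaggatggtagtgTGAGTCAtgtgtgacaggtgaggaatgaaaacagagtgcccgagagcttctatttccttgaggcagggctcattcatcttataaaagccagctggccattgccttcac
SPRR2A, chr1:153057513-153057762 (minus strand): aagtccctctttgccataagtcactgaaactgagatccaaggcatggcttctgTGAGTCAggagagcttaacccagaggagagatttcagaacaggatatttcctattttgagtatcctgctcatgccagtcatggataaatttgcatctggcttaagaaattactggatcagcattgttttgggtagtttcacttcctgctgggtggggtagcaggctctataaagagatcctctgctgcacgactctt
IVL, chr1:152908296-152908545 (plus strand): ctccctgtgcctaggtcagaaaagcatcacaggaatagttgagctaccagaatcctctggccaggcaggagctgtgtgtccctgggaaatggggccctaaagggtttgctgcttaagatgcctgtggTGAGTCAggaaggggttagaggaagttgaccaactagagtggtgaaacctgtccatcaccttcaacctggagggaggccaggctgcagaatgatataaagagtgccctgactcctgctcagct
The core starts 141 bases before the start in SPRR1B, 108 in SPRR1A and 197 in SPRR2A. The RefSeq start of SPRR1A lies 1150 bases before the start of the gene model counted here. Some genes have several RefSeq windows, and a gene was counted where any of its windows held a match. Among the 9 SPRR genes with a window 5 did, of 17 LCE genes 0, and of 16 S100 genes 3. Counted the same way, 5.19% of the 27305 genes with a window did, and by window 4.203% of 35116. SPRR3 and SPRR2F, with at most 6 and 1 reads here, were among the 5, and SPRR2D is not in that list of windows. The windows of SPRR2B, SPRR2G, SPRR4 and SPRR5 held no match. A match is a run of letters and shows no binding, and a link between AP-1 and the levels here was not tested.

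Involucrin, the early scaffold of the envelope, did not differ beyond its spread. IVL (ENSG00000163207, plus strand, from 152908545) was at 2.54, 3.23 and 2.06 FPKM with mock and 3.26, 2.60 and 3.35 FPKM with TRPV3. The groups overlapped, mock replicate 2 lying above TRPV3 replicate 2. The log2 fold change was 0.18 (95% interval -0.15 to 0.51; limma adjusted p = 0.755), and 0.14 without TRPV3 replicate 1.

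**Figure D4:**
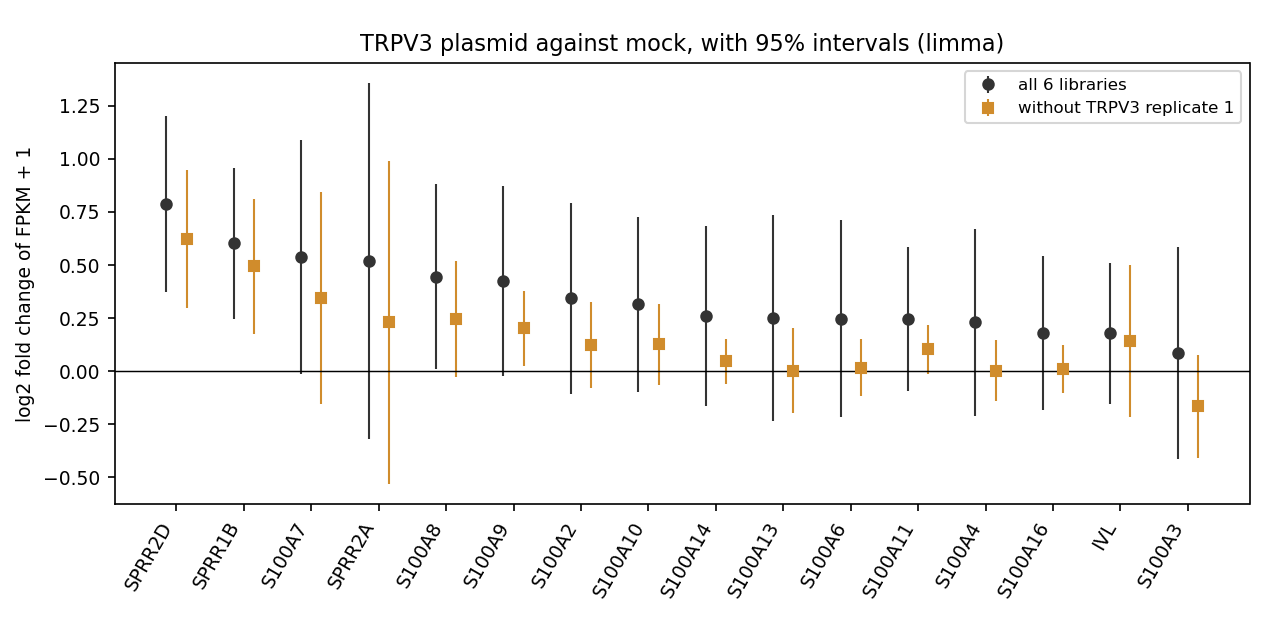
Fitted log2 fold change of FPKM + 1, TRPV3 plasmid against mock, with its 95% interval (limma) for the 16 expressed genes, with all 6 libraries (circles) and without TRPV3 replicate 1 (squares). The intervals of SPRR2D and SPRR1B lie above 0 both ways; without that library S100A6, S100A4, S100A13 and S100A16 lie at 0.02, 0.00, 0.00 and 0.01.

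S100A8 and S100A9, the calprotectin pair, were both present, S100A9 at a far higher level. S100A9 (ENSG00000163220, plus strand, from 153357854) was at 66.3, 72.2 and 64.2 FPKM with mock and at 124, 82.8 and 73.0 FPKM with TRPV3. The groups did not overlap, but TRPV3 replicate 3 was within 1 FPKM of mock replicate 2, and TRPV3 replicate 1 stood far above the rest. The fitted difference was 0.42 in log2 (SE 0.19; adjusted p = 0.755 by limma), and 0.20 (95% interval 0.03 to 0.38; adjusted p = 0.657) without TRPV3 replicate 1. S100A8 (ENSG00000143546, minus strand, from 153390032) was at 1.81, 2.33 and 1.80 FPKM with mock and 4.34, 2.28 and 2.78 FPKM with TRPV3. Its groups overlapped at TRPV3 replicate 2, and the fold change of 0.45 in log2 (SE 0.18; adjusted p = 0.755 by limma) was 0.25 without TRPV3 replicate 1. S100A12, the other S100 gene of neutrophils, had at most 1 read in a library.

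Markers of myeloid cells, the other known source of these genes, were near 0. Of the 8 on the list, 1 was above 1 FPKM, the monocyte co-receptor CD14 at 1.007 to 1.80 FPKM, which epithelial cells can also express. The summed level of the list was 1.58 to 1.82 FPKM with mock and 1.22 to 1.82 FPKM with TRPV3. The pan-leukocyte gene PTPRC and the neutrophil genes CSF3R and MPO had 8, 11 and 6 reads in mock replicate 3 and 0 in the other libraries. ITGAM had 4, 2 and 4 reads with mock and 2, 13 and 5 with TRPV3, and LYZ, CD68 and FCGR3B had at most 1, 2 and 1. S100A7 (psoriasin), an antimicrobial S100 of inflamed skin, had 6, 3 and 12 reads with mock and 21, 11 and 11 with TRPV3. TRPV3 replicates 2 and 3 fell inside the mock range, and the fold change was 0.54 in log2 (SE 0.23; adjusted p = 0.755 by limma), or 0.35 without TRPV3 replicate 1. S100A7A had 3 reads, all in mock replicate 3, and S100A7L2 none.

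**Figure D5:**
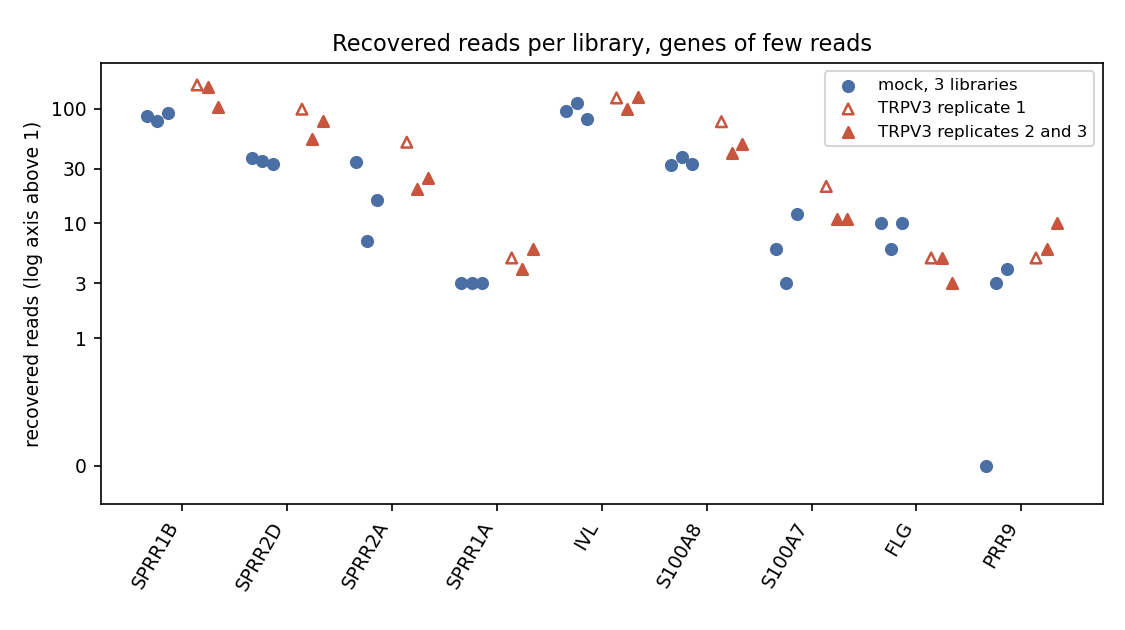
Recovered reads per library (log axis above 1 read) of 9 members with few reads; circles are mock libraries, filled triangles TRPV3 replicates 2 and 3, open triangles TRPV3 replicate 1. TRPV3 libraries lie above the mock ones in SPRR1B, SPRR2D, SPRR1A and PRR9 and below them in FLG, and the other 4 genes overlap. PGLYRP3, not drawn, also lay below, and no other member under 1 FPKM was apart. The genes drawn follow no rule, so their share without overlap does not stand for the complex. SPRR1A, PRR9, FLG and PGLYRP3 were under 1 FPKM, where the share of all genes without overlap was not counted.

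The abundant S100 genes were nearly level between the groups outside TRPV3 replicate 1. S100A11 (ENSG00000163191, minus strand, from 152032506) was at 753, 777 and 769 FPKM with mock and at 1105, 841 and 806 FPKM with TRPV3. The groups did not overlap, and without TRPV3 replicate 1 the log2 fold change fell from 0.24 to 0.10 (95% interval -0.01 to 0.22; limma adjusted p = 0.738). S100A10 (ENSG00000197747) was at 376, 392 and 327 FPKM with mock and 588, 401 and 394 FPKM with TRPV3, where replicates 2 and 3 were within 10 FPKM of mock replicate 2. Its log2 fold change was 0.32 (SE 0.18), and 0.13 without TRPV3 replicate 1. S100A6 (ENSG00000197956) was at 434, 463 and 418 FPKM with mock and 717, 447 and 440 FPKM with TRPV3. Its replicates 2 and 3 lay inside the mock range, and the log2 fold change of 0.25 became 0.02 (95% interval -0.12 to 0.15) without TRPV3 replicate 1.

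The remaining S100 genes showed the same arrangement of libraries. S100A14 was at 273, 286 and 278 FPKM with mock and 449, 288 and 288 FPKM with TRPV3, and S100A16 at 259, 266 and 257 against 376, 270 and 255 FPKM. S100A2 was at 47.9, 50.6 and 41.3 against 80.6, 49.998 and 51.3 FPKM, and S100A4 (metastasin) at 8.94, 9.68 and 8.89 against 15.4, 8.94 and 9.42 FPKM. S100A13, which takes part in the release of fibroblast growth factor 1, was at 7.19, 6.45 and 6.24 against 11.8, 7.14 and 6.16 FPKM. In each, TRPV3 replicate 1 stood alone above the other 5 libraries. S100A3, a hair cuticle protein, was at 1.97, 2.06 and 2.18 against 3.62, 1.52 and 1.98 FPKM. Its log2 fold change turned from 0.09 to -0.16 without TRPV3 replicate 1 (limma adjusted p = 0.817), and to -0.04 with the length trend removed. With all libraries the log2 fold changes of the 6 ran from 0.09 to 0.34, and without TRPV3 replicate 1 from -0.16 to 0.12. S100A13 shares 536 exonic bases with AL162258.1 on the same strand, and 13.6% of its 100-base words also occur in that gene, so reads there cannot be assigned with certainty; AL162258.1 had at most 2 reads. It also shares 235 exonic bases with S100A1 on the opposite strand, which had at most 8 reads.

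Filaggrin-type genes, which fuse an S100 domain to long repeats, were close to silent except trichohyalin. TCHH, a hair follicle and inner root sheath protein, had 77, 88 and 91 reads with mock and 102, 94 and 90 with TRPV3 over 6995 exonic bases, or 0.705 ± 0.0746 and 0.771 ± 0.0487 FPKM. These groups overlapped, and the ratio of read rates was 1.10 (counting interval 0.922 to 1.30). FLG had 10, 6 and 10 reads against 5, 5 and 3, the TRPV3 counts all being below the mock counts, at a ratio of 0.490 (0.231 to 0.989, counting error only). Without TRPV3 replicate 1 the ratio was 0.452, and its interval, 0.177 to 1.03, included 1. FLG shares 704 exonic bases with FLG-AS1 on the opposite strand, which had at most 5 reads. FLG, TCHH and the other 46 members under 1 FPKM were not in the main limma test. For genes under 1 FPKM the share without overlap between the groups was not counted either. A limma fit without the filter took in the 46 members with a read, the expressed ones among them, and 0 were called. At an unadjusted limma p under 0.05, 3 of these were higher and 1 lower, against 569 and 473 of all 38259 genes in that fit. FLG2, HRNR, RPTN and CRNN had 6, 4, 1 and 1 reads at most, each highest in mock replicate 3, and TCHHL1 had up to 7.

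Late cornified envelope genes, the last envelope proteins to appear in skin, gave traces. LCE1E reached 13 reads, with 5, 2 and 10 in the mock and 13, 3 and 4 in the TRPV3 libraries. LCE1F had 1 to 8 reads and LCE1C 3 to 6, and both overlapped between the groups. Of the other 15 LCE genes 9 had no read (LCE1A, LCE2A, LCE2B, LCE2C, LCE3A, LCE3C, LCE3D, LCE5A and LCE6A), and LCE1B, LCE1D, LCE2D, LCE3B, LCE3E and LCE4A had 1 to 7 at most. The 7 reads of LCE4A were all in mock replicate 3. Among genes between the families, PRR9, a proline-rich protein, had 0, 3 and 4 reads with mock and 5, 6 and 10 with TRPV3. Its groups did not overlap, a pattern whose share of all genes under 1 FPKM was not counted. The ratio of read rates was 2.94 (1.205 to 8.19, counting error only), and 3.36 without TRPV3 replicate 1. The peptidoglycan recognition protein genes PGLYRP3 and PGLYRP4 reached 3 and 7 reads, with 0 of PGLYRP3 in the TRPV3 libraries. CRCT1, KPRP and C1orf68 had at most 2, 2 and 1, and SMCP, LELP1, LOR and AL162596.1 none. S100A1 had at most 8 reads and S100A5 at most 4.

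Reads of these silent members came more often from mock replicate 3. Of the 48 members under 1 FPKM, 28 had a read there, against 15 to 18 in each other library, and 8 had reads in that library only. Among all protein-coding genes under 1 FPKM, 78.5% had a read in mock replicate 3, against 44.5% to 45.8% in the others. Its part in the traces of LCE and filaggrin-type genes was not tested beyond these counts.

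Genes that work with the complex, from lists chosen with earlier results of these data known, did not pass either. Of 21 cornified envelope partners 14 were tested and 0 were called. At an unadjusted limma p under 0.05, 2 were higher (3.28% of all genes) and 0 lower (1.21%). The median of the 14 was 0.04, and 7 were above 0 (53% of all genes). The partners of highest level were CST6, a protease inhibitor of skin, and the transglutaminase TGM2. CST6 was at 105, 120 and 99.6 FPKM with mock and 184, 118 and 116 FPKM with TRPV3. TGM2 was at 105, 106 and 107 against 92.3, 114 and 113 FPKM. TGM1, the main transglutaminase of the envelope, was at 12.7 to 13.1 FPKM in all 6 libraries. Of 10 S100 partners and receptors 7 were tested and 0 were called, with a median of 0.05. At an unadjusted limma p under 0.05, 1 was higher (3.28% of all genes) and 0 lower (1.21%). ANXA2, which binds S100A10, was at 320, 327 and 308 FPKM with mock and 470, 367 and 356 FPKM with TRPV3. Its log2 fold change was 0.31 (SE 0.13, adjusted p = 0.755 by limma), or 0.18 without TRPV3 replicate 1. The TRPV3 libraries were all above the mock libraries in 2 of the 7, ANXA2 among them (9.49% of all genes). They were all below in 0 (5.39%). MYH9, a myosin bound by S100A4, was at 154, 151 and 144 against 109, 150 and 157 FPKM. Of the S100 genes elsewhere in the genome, S100P was at 143, 147 and 135 against 222, 151 and 150 FPKM, again highest in TRPV3 replicate 1.

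Of 25 transcription factors known to act on the complex in keratinocytes 18 were tested, with a median of 0.10, and 0 were called with all libraries. Of these 18, 11 were above 0 (53% of all genes). At an unadjusted limma p under 0.05, 5 were higher (3.28% of all genes), FOSL1, JUN, JUNB, KLF4 and FOS, and 0 lower (1.21%). In 5 the TRPV3 libraries were all above the mock libraries (9.49% of all genes), and in 0 all below (5.39%). The AP-1 subunit FOSL1 was at 43.5, 44.0 and 47.9 FPKM with mock and 82.9, 74.1 and 78.0 FPKM with TRPV3, with all 3 TRPV3 libraries close together (log2 fold change 0.78, limma adjusted p = 0.0605; 0.74 and 0.0114 without TRPV3 replicate 1). CEBPB, the most abundant of the list, was at 163, 170 and 188 against 230, 176 and 168 FPKM. JUN, another AP-1 subunit, was at 14.4, 12.4 and 14.4 FPKM with mock and 20.96, 21.2 and 22.04 FPKM with TRPV3, without overlap (log2 fold change 0.61, limma adjusted p = 0.154; 0.62 and 0.0611 without TRPV3 replicate 1). JUN, JUNB, KLF4, FOS and TGM1 were named after their values were seen.

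Genes just outside the complex gave the positional comparison. Of 66 protein-coding genes within 1 Mb on either side 46 were tested and 0 were called. At an unadjusted limma p under 0.05, 1 was higher (3.28% of all genes) and 0 lower (1.21%). Of the 46, 24 were above 0 (53% of all genes). The median of the 46 was 0.03, or 0.01 without TRPV3 replicate 1. The difference between the complex and these neighbours was not tested.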

How the data were processed

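Each of the 6 libraries was made from total RNA with a NEBNext Ultra kit, per the labels' protocols, and the submitters' processing notes name HISAT2 2.0.5 and hg38. How reads were counted, and whether by strand, is not stated in those sources. The deposited table gives FPKM per gene; the authors' coordinates and lengths of all 64 members match GENCODE 29. FPKM times length gave whole multiples of 1 step per library (100% of values, tolerance 0.02 reads), so reads were recovered.

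Genes averaging 1 FPKM or more over the 6 libraries (12177) were tested as log2(FPKM + 1) with limma 3.58.1 (R 4.3.3): group as the term, the trend option on, p-values adjusted by Benjamini-Hochberg over all of them, called under 0.05. The fits were also run on simulated data with the spread of the mock libraries. The length trend of TRPV3 replicate 1 was not simulated, so that run does not bear on it. The rule named all members above the filter, lower ones by reads, and of each partner list its called genes and the 2 of highest level; others are said to be named later. Members, lists and alternatives were chosen with earlier results of these data known. Leaving out TRPV3 replicate 1 and mock replicate 3 together was added after seeing the data. Promoter windows are RefSeq's (GRCh38.p14). Figures used Python 3.11.15 and matplotlib 3.10.9.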

Additional observations from a re-analysis of the deposited data

How the results depend on the processing

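The count of called members was 0 with all libraries and under every alternative run: 0.1 FPKM as pseudocount, no filter, a 5 FPKM filter, TPM scaling, quantile normalization, the length trend removed, no mean-variance trend, the replicate block, voom, and each library left out (0 to 0). The replicate block therefore changed no call, with 0 members called. Deviations from the group means correlated at -0.27, -0.04 and -0.17 between same-numbered samples. Between differently numbered samples they correlated at -0.16 to 0.22. With 3 libraries per group, and TRPV3 replicate 1 and mock replicate 3 apart from the rest, these values cannot show whether same-numbered samples were paired. Members counted as expressed were 27 at 0.1 FPKM, 10 at 5 FPKM and 17 at 10 reads in each of 3 libraries. All genes at an unadjusted limma p under 0.05 were 399 higher and 147 lower, and 241 higher and 237 lower under TPM scaling; 4 members were then higher.

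Of the fold changes of single members under the alternatives 12 changed sign and 254 kept their direction. Voom without TRPV3 replicate 1 gave -0.27 for S100A3, -0.00896 for S100A4, -0.00377 for S100A16 and -0.00918 for S100A13. S100A3 was -0.042 with the length trend removed and -0.16 without TRPV3 replicate 1, and S100A16 was -0.00920 under quantile normalization. Without TRPV3 replicate 1 and mock replicate 3, S100A6 and S100A4 were each -0.018, S100A3 -0.14, S100A16 -0.00104 and S100A13 -0.033. With each library left out in turn, S100A6 ran from 0.017 to 0.370, S100A4 from 0.0023 to 0.362, S100A3 from -0.16 to 0.272, S100A16 from 0.0088 to 0.288 and S100A13 from 0.0032 to 0.420. TRPV3 replicate 1 was left out in 10 of the 12, in some of them together with mock replicate 3. The cause was not tested for any of the 12. Depth limits the members under 1 FPKM.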
